A study of Drosophila melanogaster with 4 samples.

Results

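Narrow strong Sfmbt clusters are clusters of limited width and high score on the 4 large autosomal arms, 2L, 2R, 3L and 3R. They were chosen from the authors' list of enriched clusters made from both chromatin immunoprecipitation (ChIP) replicates, here called the combined list, as clusters at most 3000 bp wide with a score of at least 1.2 that overlap a cluster in each replicate's own list by at least 1 bp. The rule kept 241 clusters, of 6360 on these arms and 8434 in the whole combined list. Of the 6360, 4310 were reproducible, meaning found in both replicates, and 2718 of those were narrow enough. Scores were set by the authors. They were taken here as log2 values with an unknown constant, a scale inferred from the values and stated by no header. The threshold of 1.2 thus separates stronger from weaker clusters within the combined list and is no absolute enrichment. Width, combined score and overlap chose the members, and values of these below are descriptions.

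The study mapped Sfmbt (labelled dSFMBT) with antibody Q2642 in nuclei of adult heads, sieved from flies of mixed adult stage grown together in population cages. The groups are 2 Sfmbt ChIP samples and 2 input chromatin samples, all of the wild-type strain Oregon-R. Each ChIP list was called against the input of the same number, per the labels. Heads hold many cell types, such as neurons, glia, photoreceptors and fat body, so a cluster does not say which cells carry it. The inputs have no list of their own, and nothing in the labels ties the ChIP samples to separate fly collections, so the spread between replicates may be technical.

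Sfmbt is a Polycomb group protein that binds methylated histone tails through its MBT repeats. With Pho, a protein that binds DNA at a defined motif, it forms the Pho repressive complex. In Drosophila this complex is known to sit at Polycomb response elements, short stretches of DNA from which the Polycomb repressive complexes are recruited to silence developmental genes over much broader domains. Genes and sequences are not assigned to the clusters here, because the lists use FlyBase release 5, while the only gene table used here describes release 6.

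The strongest narrow clusters lay on all 4 arms. By combined score, 11 of the top 24 were on 3R, 5 on 2L, 5 on 2R and 3 on 3L, and of all 241 members 83 were on 3R. The strongest on 3L, at 2850809 to 2853115, had scores of 2.83 in replicate 1 and 2.17 in replicate 2, with 2.60 combined. The strongest on 3R, at 12794122 to 12796818, had scores of 2.58 in replicate 1 and 2.59 in replicate 2, with 2.55 combined. The first of these was higher in replicate 1, and the second was nearly equal in both replicates. On 2R the cluster at 12686618 to 12688865 scored 2.66 in replicate 1, 1.97 in replicate 2 and 2.39 combined. On 2L, where the highest score was lower than on the other arms, the cluster at 4948759 to 4951296 scored 2.37 in replicate 1, 1.98 in replicate 2 and 2.15 combined. The next on each arm scored between 2.04 and 2.53 combined. They lay on 2L at 19886508 to 19888751, on 2R at 21069500 to 21071885, on 3L at 6896045 to 6898437 and on 3R at 677011 to 679491. The third on each arm scored 1.96 on 2L (5540862 to 5543643), 2.22 on 2R (11226022 to 11228895), 2.10 on 3L (17588981 to 17591354) and 2.43 on 3R (12085198 to 12087860). High score ranks of the top 24 in each replicate partly follow from their choice by a combined score made from the same libraries. All 24 were in the top 10% of both replicate lists, down to rank 153 in replicate 1 and rank 344 in replicate 2. Their SD between the replicates ran from 0.012 to 0.68 with a median of 0.29 (n = 2 each). At 18 of the 24 the score was higher in replicate 1, against 181 of all 241 members (75.1%) and 2436 of the 4069 other reproducible clusters (59.9%).

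The clusters mostly had nearly the same extent in each list. Their median width was 2458 bp in the combined list, with a range of 2066 to 2998 bp and quartiles of 2300 and 2718 bp. The median was 2242 bp over the whole combined list and 2581 bp over the other 4069 reproducible clusters of the 4 arms. For reproducible clusters of at most 3000 bp that scored under 1.2 it was 2216 bp. Narrow here thus means only within the 3000 bp limit. The replicate clusters beneath the members had a median width of 2384 bp in replicate 1 and 2330 bp in replicate 2, and each of the 241 had 1 overlapping cluster in each replicate. No member was broken into pieces in a replicate. Among wider strong clusters, the 270 reproducible ones of over 3000 bp and a score of at least 1.2, this held for 245 (90.7%). Among narrow weaker ones, the 2477 reproducible clusters of at most 3000 bp and a score under 1.2, it held for 2474 (99.9%). It was thus common to narrow clusters of either score. The midpoints of the replicate clusters were a median of 29 bp apart at the members, 76.8 bp apart at wider strong clusters and 53.5 bp apart at narrow weaker ones. At 215 of the 241 members (89.2%, 95% exact interval 84.6 to 92.8%) they were within 100 bp, against 160 of 270 wider strong clusters (59.3%) and 1780 of 2477 narrow weaker ones (71.9%). No test of these differences was run. The largest offset, 188 bp, was at 3R 24982374 to 24985288, and the next were 176 bp at 3R 4804669 to 4807521, 157 bp at 3R 529700 to 532525, 155 bp at 3L 808064 to 811009 and 154 bp at 3L 16081917 to 16084914. Each of these 5 was over 2800 bp wide.

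**Figure D1:**
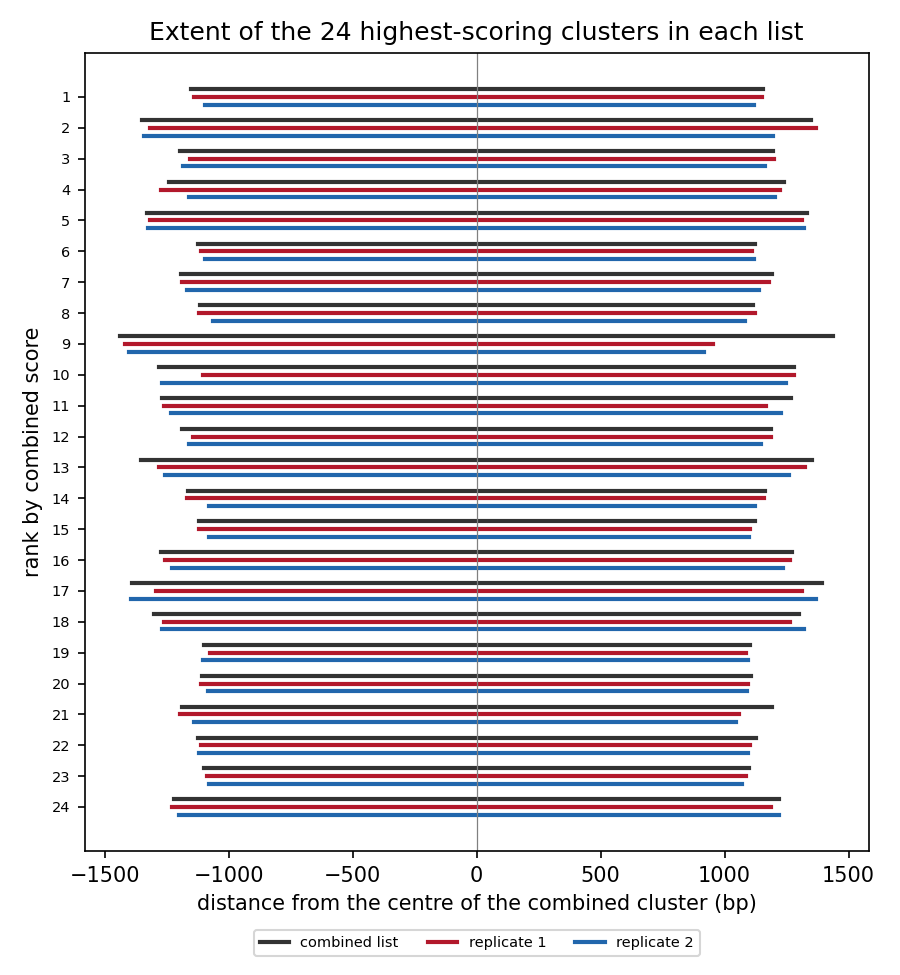
Extent of the 24 highest-scoring narrow strong clusters in the combined list, replicate 1 and replicate 2, as distance in bp from the centre of the combined cluster, with 1 row per cluster in order of combined score. The 3 lines of most rows nearly coincide, and the replicate midpoints are at most 99 bp apart. In row 9 the combined cluster ends at 1436.5 bp, and the clusters of replicates 1 and 2 end at 953.5 and 918.5 bp.

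Scores differed between the replicates at many members, mostly with replicate 1 higher. The median score was 1.57 in replicate 1, with quartiles of 1.35 and 1.81, and 1.33 in replicate 2, with quartiles of 1.15 and 1.51. Replicate 1 minus replicate 2 averaged 0.27 ± 0.36 (SD over the 241 clusters), and replicate 1 was higher at 181 of them (75.1%). In the other 4069 reproducible clusters of the 4 arms the difference averaged 0.05 ± 0.19 (SD), and replicate 1 was higher at 2436 (59.9%). In the 270 wider strong clusters the difference averaged 0.13 ± 0.23 (SD), and replicate 1 was higher at 194 (71.9%). A constant shift between the lists cannot be read as a difference, since their scaling constants are unknown, and over all 4310 the median shift was 0.04. Across the members Spearman's rho between the replicates was 0.19 and Pearson's r 0.41, against a rho of 0.80 and an r of 0.82 across the other reproducible clusters. Across wider strong clusters, which share the score threshold, rho was 0.47 and r 0.56. These are correlations across clusters of a single pair of libraries, and clusters are not independent replicates. The rule also sets them in part. It cuts the range of scores, and among members with nearly equal combined scores a high value in one replicate goes with a low value in the other. Within scores of 1.2 to 1.3 rho was -0.82 (76 clusters), within 1.3 to 1.5 it was -0.82 (76) and from 1.5 up it was 0.19 (89).

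Differences of more than 0.5 all had replicate 1 higher. Replicate 1 was higher by more than 0.5, a 1.41-fold difference if the scores are log2 values, at 68 of the 241 (28.2%, exact interval 22.6 to 34.4%). Over all 4310 reproducible clusters of these arms the share was 3.78%. Replicate 2 was higher by more than 0.5 at 0 of the 241 (exact upper limit 1.52%), and at 0.0928% of all 4310. The intervals cover counting error only. The combined score that chose the members was made from the same libraries, so these shares are descriptions. Differences of 0 to 0.1 were the most frequent, with 37 clusters. From 0.3 to 1.0 the numbers per step of 0.1 were 12, 11, 13, 17, 11, 12 and 11, a nearly level tail, and 4 clusters lay beyond 1. With the median difference subtracted, 65 members still exceeded 0.5 in replicate 1 and 0 in replicate 2.

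**Figure D2:**
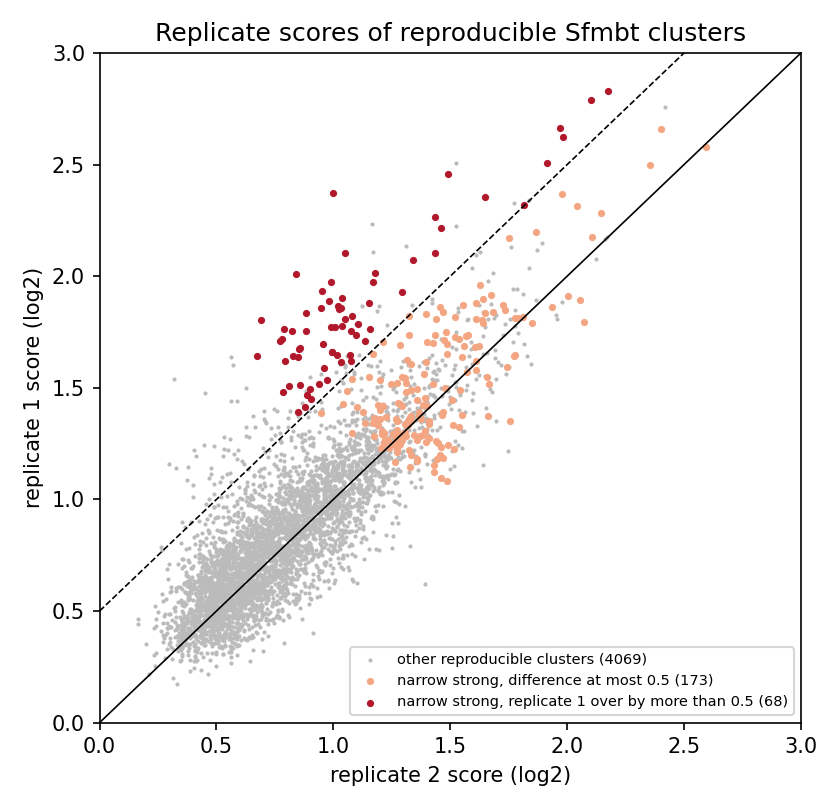
Score in replicate 1 (vertical axis, log2) against replicate 2 (horizontal axis, log2) for each reproducible cluster of 2L, 2R, 3L and 3R. The solid line marks equal scores and the dashed line a difference of 0.5, above which lie 68 of the 241 narrow strong clusters.

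**Figure D3:**
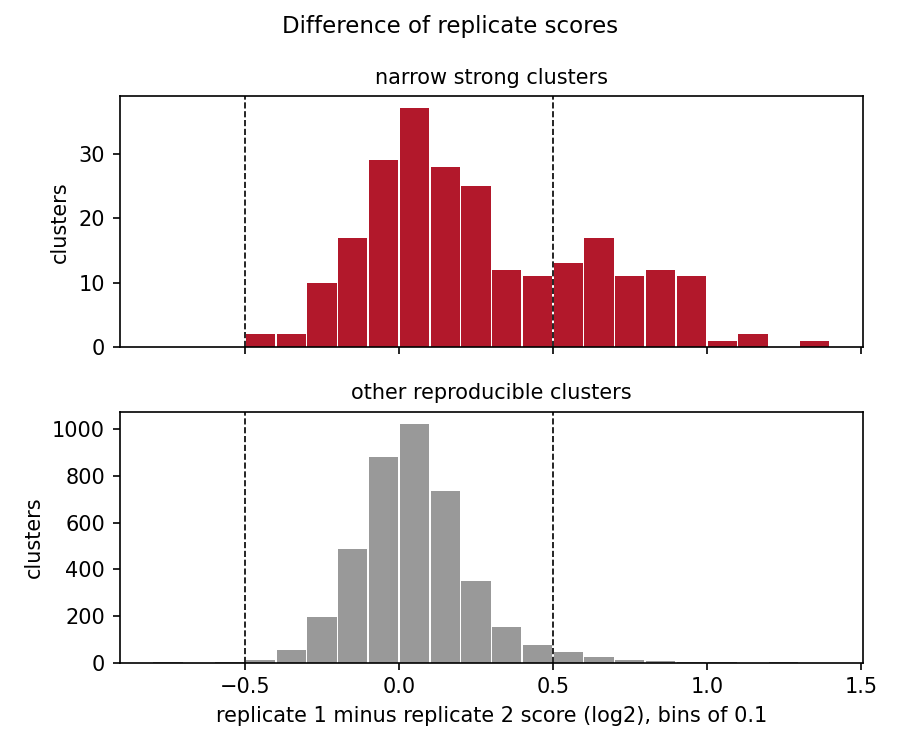
Number of clusters by replicate 1 minus replicate 2 score (log2, bins of 0.1) for the 241 narrow strong clusters (top) and the other 4069 reproducible clusters (bottom), with dashed lines at -0.5 and 0.5. The members have a peak just above 0, with 37 clusters at 0 to 0.1, and a level tail of 11 to 17 clusters a bin from 0.3 to 1.0.

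The 68 members with replicate 1 higher by more than 0.5 had a median score of 1.77 in replicate 1 and 1.00 in replicate 2. The other 173 had medians of 1.43 and 1.39. The widest gap was at 3R 19346894 to 19349470, which scored 2.37 in replicate 1 and 1.00 in replicate 2, at rank 23 of the 6560 clusters of replicate 1 and rank 1761 of the 6508 of replicate 2. Next came 2R 11705115 to 11707259, with 2.01 in replicate 1 and 0.84 in replicate 2, and 3R 8475320 to 8477521, with 1.81 in replicate 1 and 0.69 in replicate 2. At 2R 11371903 to 11374264 the scores were 2.10 in replicate 1 and 1.05 in replicate 2, and at 2L 1490935 to 1493168 they were 1.97 and 0.99. In the opposite direction the gaps were smaller. The largest were at 2L 8477081 to 8479280, with 1.35 in replicate 1 and 1.76 in replicate 2, and at 2L 6722137 to 6724859, with 1.08 in replicate 1 and 1.49 in replicate 2. The cluster at 2R 3273645 to 3275922 scored 1.10 in replicate 1 and 1.46 in replicate 2. The closest scores were at 3L 6971958 to 6974335, with 1.57 in both replicates, and at 3R 5153182 to 5155835, with 1.29 in both.

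Unequal scores were more frequent among the narrower members. Among the 133 members of at most 2500 bp, a width chosen after the values were seen, replicate 1 was higher by more than 0.5 at 54 (40.6%, exact interval 32.2 to 49.5%), and among the 108 wider members at 14 (13.0%, interval 7.27 to 20.8%). Among the 24 strongest, of which 15 were at most 2500 bp wide, it was higher by that much at 11, and all 11 were among these 15. By arm the shares were 37.7% on 2R (20 of 53), 31.3% on 3R (26 of 83), 21.3% on 2L (10 of 47) and 20.7% on 3L (12 of 58), and their exact intervals overlap. Of wider strong clusters 22 of 270 (8.15%) passed the same difference, and of narrow weaker ones 55 of 2477 (2.22%). On the X, clusters of the same width and score did so at 12 of 67 (17.9%, interval 9.61 to 29.2%). At the reproducible cluster nearest to each member, the median of replicate 1 minus replicate 2 was 0.06 for the 68 unequal members and 0.07 for the other 173. That neighbour was itself higher in replicate 1 by more than 0.5 for 6 of the 68 and 11 of the 173. Differences in depth or in the libraries between the replicates were not tested, since the lists give no depth.

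How many members were unequal depended on which list chose them, an alternative added after the data were seen. Of the 375 reproducible clusters whose replicate 1 cluster was at most 3000 bp wide and scored at least 1.2, replicate 1 was higher by more than 0.5 at 111 (29.6%) and replicate 2 at 0. Of the 277 chosen in the same way from replicate 2, replicate 1 was higher by that much at 16 (5.78%) and replicate 2 at 2 (0.722%), and rho was 0.69. Of the 241 members, 160 (66.4%, exact interval 60.04 to 72.3%) scored at least 1.2 in both replicates, 71 in replicate 1 only and 10 in replicate 2 only. Their median rank was 306 in replicate 1 and 541 in replicate 2. In the top 10% of each list by score were 182 members in replicate 1 and 144 in replicate 2, and 107 were in both.

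At the edges of the rule, clusters just inside and just outside had nearly the same values. The lowest member, at 3L 20294250 to 20296696, had a combined score of 1.2003 with 1.23 in replicate 1 and 1.204 in replicate 2. The highest cluster to miss by score alone, at 3R 20054778 to 20057509, had 1.1997 with 1.21 in both replicates. The widest member, at 3L 16081917 to 16084914, was 2998 bp and scored 1.45 combined, and the narrowest strong cluster to miss by width, at 3R 12723686 to 12726686, was 3001 bp and scored 1.404. Another 12 combined-list clusters met the width and score but overlapped no cluster of either replicate. They scored 1.29 to 2.97 and were 1001 to 1274 bp wide, all narrower than any member. The replicate lists held no cluster that narrow, with smallest widths of 1301 bp in replicate 1 and 1302 bp in replicate 2. Of the 12, 7 lay on 2R, all between 107198 and 1451055.

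Along the arms, members were most frequent on 3R. There were 83 on 3R (2.97 per Mb), 58 on 3L (2.36 per Mb), 53 on 2R (2.51 per Mb) and 47 on 2L (2.04 per Mb). As a share of each arm's reproducible clusters they were 6.58% on 3R (exact interval 5.28 to 8.09%), 5.64% on 3L, 5.05% on 2L and 4.86% on 2R (interval 3.66 to 6.31%), and these intervals overlap. At the centromeric ends, the first Mb of 2R held 0 members of 34 reproducible clusters, the last Mb of 3L 0 of 7, the last Mb of 2L 1 of 20 and the first Mb of 3R 6 of 55. At the telomeric ends, the first Mb of 2L held 3 of 54 and that of 3L 5 of 61, and the last Mb of 2R held 3 of 47 and that of 3R 1 of 39. The second Mb of 2R also held 0 members, of 40 reproducible clusters. With so few clusters at each end, no difference from the whole arms can be read from these counts. Between neighbouring members, the longest stretches without one were 2.71 Mb on 3L (10319992 to 13033188) and 1.96 Mb on 3R (17388612 to 19346893). On 2L the longest was 1.59 Mb (8826759 to 10421570), and on 2R it was 1.202 Mb (16219648 to 17421899). Before its first member, which began at 2100603, 2R had a longer stretch without one.

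**Figure D4:**
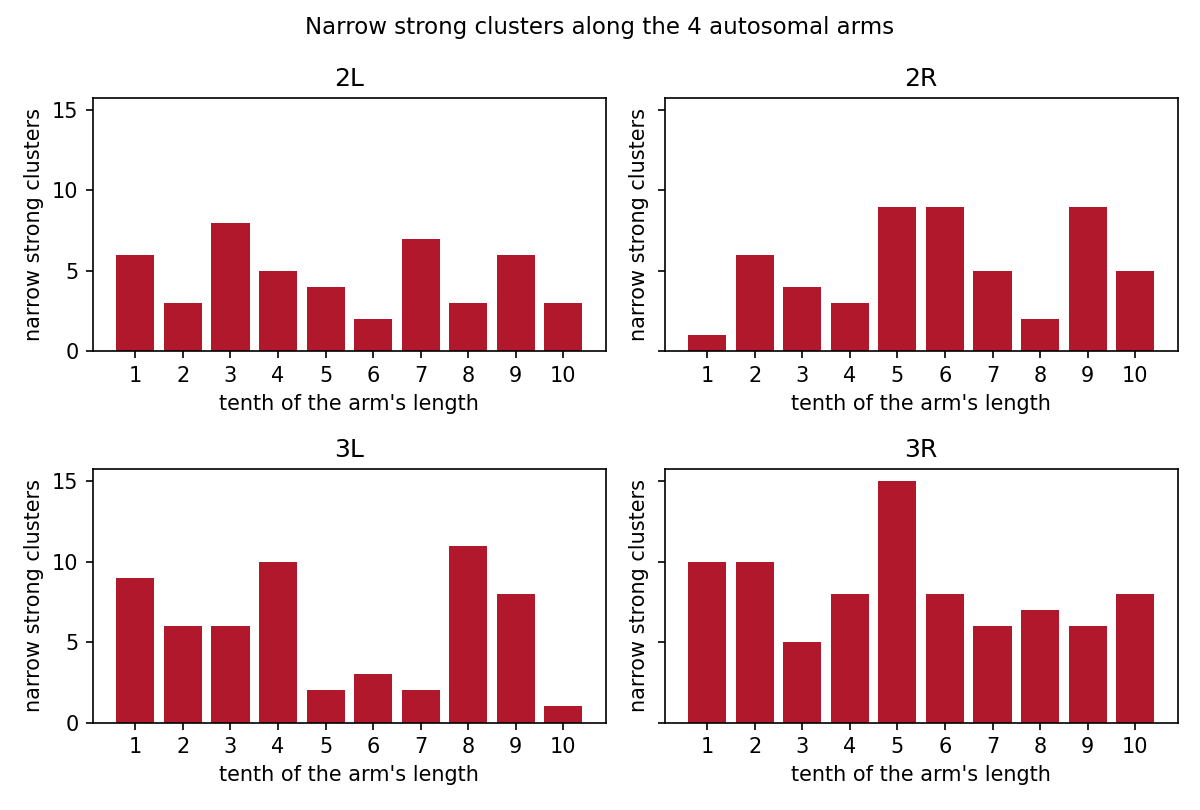
Number of narrow strong clusters along 2L, 2R, 3L and 3R, each divided into 10 bins of equal length counted from the arm's first base. The fifth bin of 3R holds the most, 15 of the arm's 83.

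A single stretch of 3R stood out by number. Among 99 windows of 1 Mb, the one from 12000001 to 13000000 on 3R held 13 members, and no other held more than 6. It had 60 reproducible clusters in all. Within it, 10 members lay in 324 kb between 12480457 and 12804939, bounds chosen after the positions were seen. The bithorax complex, a group of Hox genes long known as a target of Polycomb silencing, is known to lie in this part of 3R. That is background knowledge, and no annotation of release 5 was used to place it. The 17 combined-list clusters of this stretch were all reproducible, and none was 6000 bp or wider. Of the top 24, 4 were in it, and the combined scores of its 10 members ran from 1.202 to 2.55. From the first to the last, their replicate scores were 1.39 in replicate 1 and 0.95 in replicate 2 at 12480457, then 1.37 and 1.33 at 12527581, 2.17 and 1.75 at 12588535, 1.79 and 1.85 at 12623198, and 1.96 and 1.63 at 12636546. They were 2.31 in replicate 1 and 2.04 in replicate 2 at 12693825, 1.44 and 1.36 at 12707282, 1.75 and 1.48 at 12773406, 2.58 and 2.59 at 12794122, and 1.86 and 1.02 at 12802636. The last of them was the 1 member of the stretch that differed by more than 0.5. The gap from these members to the nearest other cluster had a median of 10.2 kb and ran from 1.43 to 44.4 kb, and the nearest cluster of 6000 bp or more was 97.9 to 402 kb away.

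Narrow strong clusters had a somewhat longer median gap to the nearest cluster than the other reproducible clusters. The bases between a member and the nearest other combined-list cluster had a median of 3.36 kb, with quartiles of 1.19 and 7.07 kb. The median was 2.17 kb for wider strong clusters, 2.32 kb for narrow weaker ones and 2.21 kb for all other reproducible clusters. With only reproducible clusters as neighbours, the medians were closer. They were 4.02 kb for members, 3.89 kb for wider strong clusters, 3.53 kb for narrow weaker ones and 3.44 kb for all others. The nearest combined-list cluster was within 1 kb of 49 of the 241 members (20.3%, exact interval 15.4 to 26.0%), and of 1149 of the 4069 others (28.2%, interval 26.9 to 29.6%). It was over 10 kb from 42 members (17.4%, interval 12.9 to 22.8%), against 506 of the others (12.4%, interval 11.4 to 13.5%). A member had a median of 7 other clusters within 50 kb of its edges, and the others had 8. These differences were not tested. The nearest cluster was itself reproducible at 178 members, scored higher than the member at 8, was 6000 bp or wider at 8 and was another member at 15. That it seldom scored higher follows from the score threshold that chose the members. The most isolated member, at 2L 16048707 to 16050943, had no cluster within 116 kb and scored 1.42 in replicate 1 and 1.402 in replicate 2. Next came 2R 13813405 to 13815830 (50.9 kb), 2L 4660027 to 4662417 (47.4 kb), 3R 12527581 to 12529881 (44.4 kb) and 2R 4213482 to 4215996 (36.3 kb). Across the members Spearman's rho between combined score and this gap was 0.21, and between width and the gap it was -0.17 (241 clusters on shared arms, as a description).

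The distance from members to wide clusters was near that of other clusters. The 4 arms had 236 clusters of 6000 bp or more, 73 on 2R, 59 on 3L, 54 on 2L and 50 on 3R, and all 236 were reproducible. The gap from a member to the nearest of them had a median of 156 kb, with quartiles of 61.8 and 293 kb. The median was 137 kb for wider strong clusters and 131 kb for narrow weaker ones. A wide cluster was within 10 kb of 18 members (7.47%, exact interval 4.49 to 11.5%), of 31 of 270 wider strong clusters (11.5%, interval 7.94 to 15.9%) and of 184 of 2477 narrow weaker ones (7.43%, interval 6.43 to 8.53%). It was over 100 kb from 147 members (61.0%, interval 54.5 to 67.2%), against 55.9% of wider strong clusters and 57.9% of narrow weaker ones. The intervals for the members overlap those of both other sets, and Spearman's rho between combined score and this gap was 0.04 across the members. By arm the median gap was 193 kb on 3R, 151 kb on 3L, 120 kb on 2L and 106 kb on 2R.

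The 5 members nearest to a wide cluster had combined scores of 1.31 to 1.59, none among the top 24. The closest, at 3L 9126452 to 9128829, scored 1.43 in replicate 1 and 1.28 in replicate 2 and lay 1734 bp from a cluster of 7428 bp with a combined score of 1.12. The member at 3L 21277785 to 21280362 scored 1.63 in replicate 1 and 1.31 in replicate 2, 2121 bp from a cluster of 6011 bp that scored 0.61. The member at 2L 489192 to 492133 scored 1.83 in replicate 1 and 1.398 in replicate 2 and lay 2652 bp from a cluster of 8683 bp. At 2R 17606420 to 17609345 the scores were 1.62 in replicate 1 and 1.07 in replicate 2, and the neighbour, 3080 bp away, was 17592 bp wide, with a combined score of 1.35 for the member and 1.49 for the neighbour. At 2R 19749046 to 19751484 they were 1.74 in replicate 1 and 1.44 in replicate 2, 3529 bp from a cluster of 7029 bp. Of the top 24, 1 lay within 10 kb of a wide cluster, the one at 3R 12085198 to 12087860, which was 6519 bp from a cluster of 32802 bp and scored 2.497 in replicate 1 and 2.35 in replicate 2. The 5 members farthest from a wide cluster were all on the distal part of 3R, with gaps of 1.36 Mb at 24459529, 1.29 Mb at 24982374, 1.21 Mb at 19855966 and also at 19862348, and 1.13 Mb at 25137806.

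**Figure D5:**
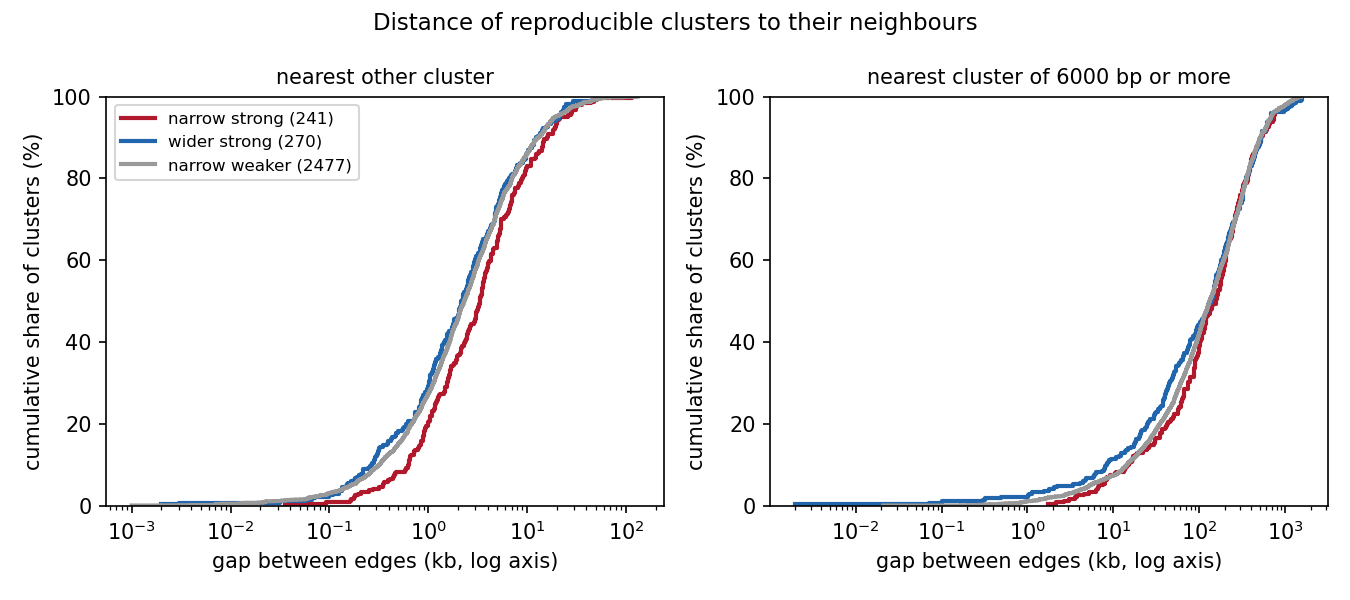
Cumulative share of clusters (%) by the gap between edges in kb (log axis) to the nearest other cluster (left) and to the nearest cluster of 6000 bp or more (right), for 241 narrow strong, 270 wider strong and 2477 narrow weaker clusters. The members' curve lies to the right of both others on the left panel, with a median of 3.36 kb, and the 3 curves nearly coincide on the right above 100 kb.

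Members lay about as far from each other as other clusters lay from members. The nearest other member was a median of 119 kb away, with quartiles of 43.3 and 272 kb, against 131 kb to the nearest member for narrow weaker clusters and 147 kb for wider strong ones, and 33 members (13.7%, exact interval 9.62 to 18.7%) had one within 20 kb. Of the narrow weaker clusters 12.4% had a member within 20 kb, and of the wider strong ones 10.4%. Linked at gaps of at most 20 kb, the 33 formed 15 pairs and a group of 3, and 10 of these 16 groups were on 3R. The group of 3 lay at 3R 12773406 to 12804939. The closest pair, 643 bp apart on 2R, was at 11705115 to 11707259 and 11707903 to 11710088. The first of them scored 2.01 in replicate 1 and 0.84 in replicate 2, and the second 1.67 and 0.85, so both were higher in replicate 1. The next pair, 2910 bp apart at 3R 26027658 to 26030420 and 26033331 to 26036171, was not alike. The first scored 1.69 in replicate 1 and 0.96 in replicate 2, and the second 1.497 and 1.48. At 3R 19855966 to 19858822 and 19862348 to 19865046, 3525 bp apart, the first scored 1.299 in replicate 1 and 1.21 in replicate 2 and the second 1.27 and 1.22. The pairs at 3L 17549514 to 17558119 and 3L 9033173 to 9041596 were 3550 and 3704 bp apart.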

How the data were processed

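ChIP-seq with antibody Q2642 was done on formaldehyde-treated, sonicated chromatin of adult heads. The submitters' processing notes name Bowtie 0.12.7, and per the file headers the coordinates follow FlyBase release 5. How peaks were called, thresholded and filtered, and how replicates were combined, is not given in the sources used here. The authors deposited 1 list of enriched regions for each ChIP sample and 1 for the replicate set. The deposited scores were taken as log2 values, which no header states. Set against the commonest score of each list and raised as powers of 2, 99.98% of replicate 1 scores, 99.8% of replicate 2 scores and 98.2% of combined scores were whole-number ratios with denominators of at most 5000, within a relative tolerance of 1e-11, against at most 0.152% of random scores. Depth per sample is unknown.

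No cluster was removed, and no list held overlapping or repeated clusters. Each member took its replicate scores from the overlapping cluster with the highest score in that replicate. Gaps count the bases between edges, and neighbours were taken from the combined list on the same arm. Shares carry 95% exact (Clopper-Pearson) intervals. No test between samples was run. The inputs have no list to compare with, and 2 replicates are too few for an exact test over samples to reach significance. The members and comparisons were chosen with earlier results of these data known. Regions named were those at the extremes of score, width, replicate difference, offset and distance, by a fixed rule, with ties by arm and start. The counting functions were tested on simulated clusters. Software was Python 3.11.15 with pandas 2.3.3, NumPy 2.4.6 and SciPy 1.17.1, and figures were drawn with matplotlib 3.10.9. Alternatives tried are given with their values after the results.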

Additional observations from a re-analysis of the deposited data

How the results depend on the processing

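No paired analysis was possible because the inputs have no list of their own and no result comes from a test between groups. With a largest width of 2500 or 4000 bp, in that order, the members numbered 133 and 370 (3.09% and 8.58% of reproducible clusters), grouped members 12 and 73, rho 0.12 and 0.26, and the median midpoint offset 22.5 and 36.5 bp. At 2500 bp the median gap was 4.29 kb to the nearest cluster and 127 kb to a wide one. With a smallest score of 1.0 or 1.5, members numbered 442 and 89 (10.3% and 2.06%), grouped members 106 and 7, the gap to the nearest cluster 2.99 and 4.49 kb, rho 0.25 and 0.19, and the offset 30.3 and 26 bp. At 1.5, 27 members were higher in replicate 1 by more than 0.5. Without replicate 1 or replicate 2 in the overlap rule, the same number of members, 241, was found, and their share was 5.10% and 4.92% of a larger set. Requiring 50% coverage also gave 241.

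The gap to the nearest cluster was 6.01 kb between midpoints, 4.02 kb to reproducible clusters, and 3.78 and 4.21 kb in the lists of replicates 1 and 2. The gap to a wide cluster was 72.7 kb for 5000 bp or more and 444 kb for 8000 bp or more, and it was 282 and 318 kb with wide clusters from replicates 1 and 2, added after the data were seen. Grouped members numbered 20 at 10 kb and 74 at 50 kb. Pearson's r was 0.41 where rho was 0.19, and 4 members differed by more than 1. Members chosen in replicate 1 numbered 375, with 111 unequal and a rho of 0.35, and those chosen in replicate 2 gave 16 unequal and a rho of 0.69. The cause of these changes was not tested beyond what each alternative's own construction sets. Neither rho nor the mean difference between replicates changed sign under these alternatives. The sign of rho did depend on the score range, with -0.82 within scores of 1.2 to 1.3 and of 1.3 to 1.5. Apart from the gap to reproducible clusters, the values of the wider strong and narrow weaker clusters were not recomputed under these alternatives. To reproducible clusters the median gap of those sets was 3.89 and 3.53 kb, near the members' 4.02 kb. At 2500 bp the members' gap to a wide cluster, 127 kb, is below the 137 and 131 kb of those sets. With no depth in the lists, the precision of a single score is unknown.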
